A study of Homo sapiens with 4 samples.

Results

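Histone-modifying enzymes and Polycomb proteins write, erase and scaffold the chemical marks on histones that keep genes on or off. Of 46 such genes listed, 42 had a probe set annotated to that gene alone, and these 42 genes had 132 probe sets among the 54613 probe sets tested. They were matched by symbol to a list made with earlier results of these data known, and every probe set was kept. BMI1, a core Polycomb subunit, was read by a probe set annotated to several genes, and RNF2, CBX8 and NCOR1 matched no probe set under this rule, so these 4 genes are not analysed here. The genes were compared in CaSki, a human papillomavirus-positive cervical squamous carcinoma line. The cells carried either GFP, the control, or ZNF750, a zinc finger protein that promotes terminal differentiation of squamous epithelium, each introduced by lentivirus. Both groups therefore share the line, its viral oncogenes and transduction, and only 1 line was used. There were 2 Affymetrix HG-U133 Plus 2.0 arrays per group, described as biological duplicates with no account of how the cultures were made, so the p-values measure only the spread between these arrays.

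Values are RMA values on the log2 scale, and a difference is ZNF750 minus GFP in log2 units. Errors given with ± are standard errors of that difference from limma, a linear model fitted to all probe sets together (n = 2 arrays per group). A probe set was called when its p-value, adjusted by Benjamini-Hochberg over all 54613 probe sets, was under 0.05, and each gene took the call of its brightest probe set. RMA compresses dim signals, so the differences of probe sets near background are understated.

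The PRC2 complex methylates histone H3 at K27 through EZH1 or EZH2, held together by SUZ12 and EED, and the PRC1 complex ubiquitinates histone H2A through RING1 or RNF2. In keratinocytes EZH2 restrains differentiation genes until cells leave the basal layer, and the demethylases KDM6A and KDM6B remove the mark. The KMT2 and SETD1 enzymes methylate histone H3 at K4, acetyltransferases such as EP300 open chromatin, and histone deacetylases reverse that, mostly inside SIN3, NCOR or CoREST complexes. ZNF750 itself acts with chromatin regulators, among them KDM1A, to activate late differentiation genes and repress earlier ones.

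Of the 42 genes, 6 rose, 3 fell and 33 were not called. The 9 called genes were 21.4% of the members, beside 15.1% of all 19775 genes (6.39% called higher and 8.75% called lower). With probe sets under log2 6 left out, 30% of the members and 32.4% of all genes were called. The deacetylase HDAC9 rose 2.14-fold, the only change above 2-fold. KDM5A, SIN3A, HDAC5, KDM4B and RING1 rose by between 1.14-fold and 1.38-fold. EED, KDM6A and HDAC1 fell by 0.38, 0.45 and 0.28 on the log2 scale. The median difference of the members was 0.04, and that of all genes was 0.04. With probe sets under log2 6 left out, these medians were 0.04 and -0.01. By probe set, 8 of 132 were called higher and 4 lower, or 9.09%, beside 11.5% of all probe sets (4.3% higher and 7.19% lower). The groups did not overlap for 29 of the 42 genes, and for 58.8% of all genes.

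**Figure D1:**
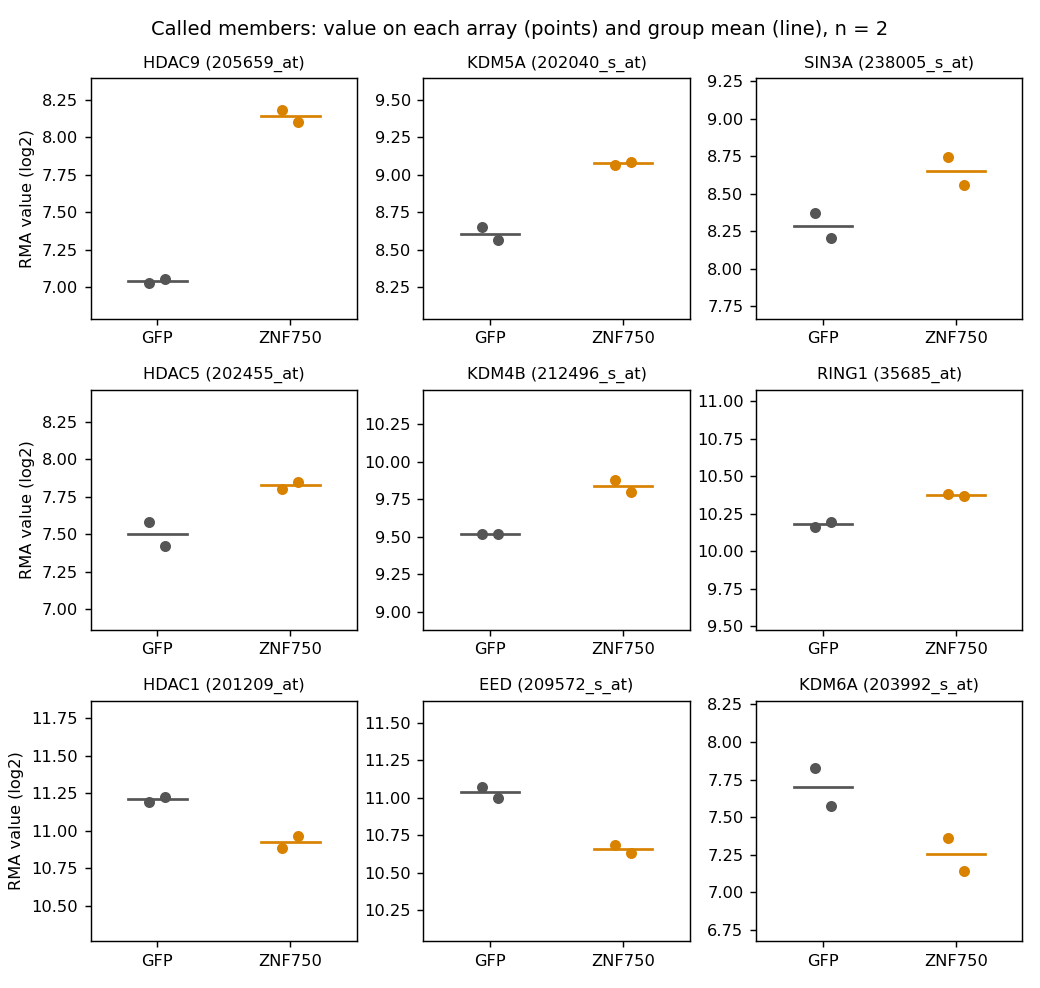
Log2 RMA value (vertical axis, a span of the same height in every panel) of the brightest probe set of each of the 9 called members on 2 GFP and 2 ZNF750-labelled arrays. Points are arrays and lines are group means; HDAC9 moved by 1.10 and the other 8 genes by between 0.19 and 0.47 in size.

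Promoter sequence was examined for 8 of the 9 called genes (HDAC5 had no window in the table used and was not examined), and 4 windows are shown: one of HDAC9, which rose most, and those of the 3 genes that fell. Each is the 250 bases before a RefSeq transcription start (GRCh38.p14), 5′ to 3′ on the plus strand, which is the coding strand of all 4 genes. Capitals mark matches to CCNNAGGC, a motif described for ZNF750 binding in keratinocytes, searched on both strands. The HDAC9 window is at chr7:18495460-18495709 and is the second most upstream of 5 annotated starts, that of HDAC1 at chr1:32291833-32292082, that of EED at chr11:86244503-86244752 and that of KDM6A at chrX:44872938-44873187.
HDAC9: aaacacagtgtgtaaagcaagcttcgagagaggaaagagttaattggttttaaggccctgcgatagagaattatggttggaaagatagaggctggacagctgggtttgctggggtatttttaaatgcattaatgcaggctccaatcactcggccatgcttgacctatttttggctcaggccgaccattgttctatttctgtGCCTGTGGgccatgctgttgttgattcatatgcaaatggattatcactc
HDAC1: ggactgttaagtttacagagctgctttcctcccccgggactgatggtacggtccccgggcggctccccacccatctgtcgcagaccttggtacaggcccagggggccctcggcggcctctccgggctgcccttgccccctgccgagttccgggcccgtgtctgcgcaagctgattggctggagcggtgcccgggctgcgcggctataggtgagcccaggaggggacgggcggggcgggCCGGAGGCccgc
EED: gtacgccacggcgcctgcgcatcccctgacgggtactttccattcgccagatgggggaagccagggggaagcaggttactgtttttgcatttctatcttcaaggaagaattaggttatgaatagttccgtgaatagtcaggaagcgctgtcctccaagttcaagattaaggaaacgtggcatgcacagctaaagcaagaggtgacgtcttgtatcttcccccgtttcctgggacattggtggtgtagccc
KDM6A: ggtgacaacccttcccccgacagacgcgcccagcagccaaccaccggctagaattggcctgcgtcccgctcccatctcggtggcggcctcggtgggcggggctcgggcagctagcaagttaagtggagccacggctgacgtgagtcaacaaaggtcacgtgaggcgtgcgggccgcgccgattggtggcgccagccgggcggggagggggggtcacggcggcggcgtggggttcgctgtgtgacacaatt

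In HDAC9 the match lies on the minus strand, 49 to 42 bases before that start, and an overlapping window of the gene holds the same match. In HDAC1 the match lies on the plus strand, 12 to 5 bases before the start. EED and KDM6A held none in these windows. Of the members, 38 had windows in the RefSeq table, 58 in all, and 12 of these (20.7%) held the motif, beside 23.5% of all 35116 windows. Among the windows of called members, 4 of 13 held it: 2 of HDAC9, and those of HDAC1 and RING1. The E2F sequences TTTCGCGC and TTTGGCGC, searched on both strands, were found in 0 of the 58 member windows and in 0.968% of all windows. They are too rare for 0 of 58 to tell the members from other genes. Other forms of the E2F motif were not searched. A match is a stretch of letters, and binding was not measured.

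Within PRC2, EED fell while the catalytic subunits were not called. EED, the subunit that recognises the methylated mark, read 11.07 and 11.00 in the GFP arrays and 10.68 and 10.63 in the ZNF750-labelled arrays. Both values with ZNF750 lay below both with GFP, a difference of -0.38 ± 0.048 (limma adjusted p = 0.00418). A dimmer EED probe set (210656_at) also fell, from 5.58 and 5.42 to 4.91 and 4.16 (-0.97 ± 0.23, limma adjusted p = 0.0354). EED was 1 of 2 called genes, with HDAC9, for which more than 1 probe set was called.

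EZH2, the methyltransferase used in dividing cells, read 9.29 and 8.97 with GFP and 9.18 and 9.17 with ZNF750. The groups overlapped, and the difference of 0.04 had a 95% interval of -0.19 to 0.28. EZH1, its paralog in resting cells, read 7.92 and 7.89 against 8.18 and 8.11, without overlap. Its difference of 0.23 ± 0.070 was not called (limma adjusted p = 0.0796), although it was after cyclic loess (0.28, adjusted p = 0.0323), and 4 of its 5 probe sets were higher by sign. SUZ12, the scaffold, differed by less than 0.01 on its brightest probe set (95% interval -0.12 to 0.12). A very dim SUZ12 probe set (1566190_at) read 3.83 and 3.90 against 4.71 and 4.20, and its difference of 0.59 ± 0.18 was not called (limma adjusted p = 0.0759). JARID2, which guides PRC2 to its sites, differed by 0.14 ± 0.049 and was not called (limma adjusted p = 0.126), while after cyclic loess it was (0.20, adjusted p = 0.0272).

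In PRC1, the ubiquitin ligase RING1 rose slightly. It read 10.16 and 10.20 in the GFP arrays and 10.38 and 10.37 in the ZNF750-labelled arrays, so that the groups did not overlap. The difference was 0.19 ± 0.048 (1.14-fold, limma adjusted p = 0.0416), and a further probe set gave 0.09, which was not called. The mean of its probe sets gave 0.14 and no call (limma adjusted p = 0.0911). CBX2, the chromodomain subunit that reads the PRC2 mark, differed by 0.03 (95% interval -0.12 to 0.18), and its 4 probe sets included 3 positive and 1 negative difference.

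Other subunits of the Polycomb complexes, 27 of 29 listed genes measured, moved both ways: 1 rose, 3 fell and 23 were not called. Their median difference was -0.09, beside 0.04 for all genes. Of the 27, 0 had a mean under log2 6. With probe sets under that level left out, the median of all genes was -0.01. The called share was 14.8%, beside 15.1% of all genes. The balance turned with the scaling, to 4 higher and 2 lower after cyclic loess and 6 higher and 2 lower after a second quantile normalization or centring. PHF19, a Tudor-domain subunit that recruits PRC2, fell by 0.48 (SE 0.053, limma adjusted p = 0.00259). SCMH1 and SCML1, sex-comb proteins related to PRC1, differed by -0.46 ± 0.085 and -0.30 ± 0.074. PHF1, a paralog of PHF19 in the same role, rose by 0.27 (SE 0.054). The 2 PRC2 recruiters thus differed in opposite directions, each with a call of its own. PHF19, SCMH1 and SCML1 were all read by _s_at probe sets. Without _x_at and _s_at probe sets, limma called 1 of the 21 genes left higher and 0 lower (7 and 3 at an unadjusted p under 0.05).

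**Figure D2:**
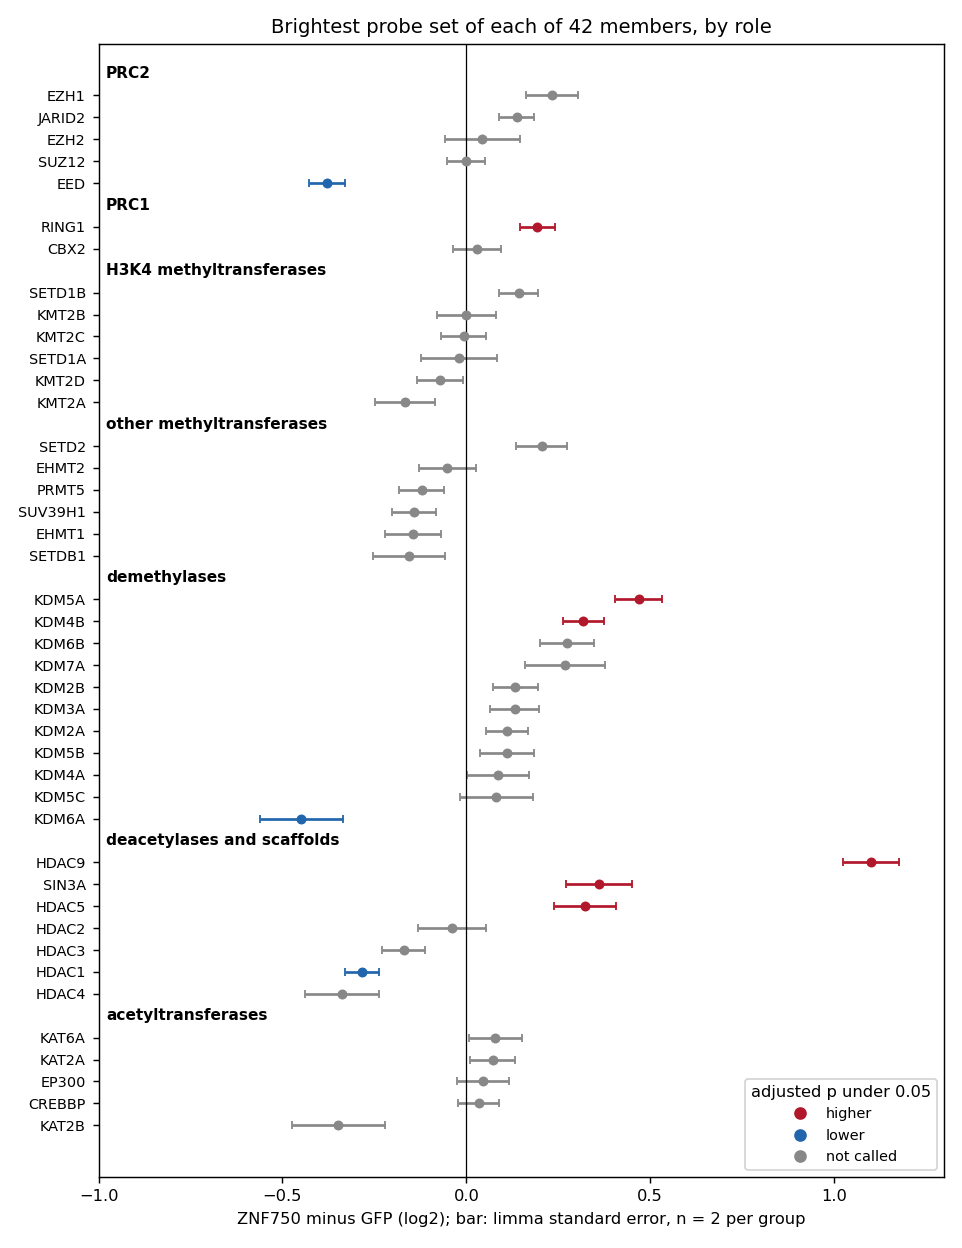
Difference between ZNF750-labelled and GFP arrays (horizontal axis, log2) for the brightest probe set of each of the 42 measured members, grouped by role, with limma's standard error as the bar (n = 2 per group). Red marks the 6 genes called higher and blue the 3 called lower; all 6 H3K4 methyltransferases and all 5 acetyltransferases are grey.

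None of the 6 H3K4 methyltransferases was called by its brightest probe set in limma, and 1 passed at an unadjusted p under 0.05 (SETD1B, 0.14 ± 0.053). SETD1B was called after cyclic loess (0.21, adjusted p = 0.0448) and after centring on brighter probe sets (0.21, adjusted p = 0.0451). KMT2D, which acts at enhancers and is often mutated in squamous carcinoma, read 8.75 and 8.69 with GFP and 8.64 and 8.65 with ZNF750. The ZNF750-labelled values lay below the GFP values, but the difference was only -0.07 ± 0.062 (limma adjusted p = 0.531). KMT2A, KMT2B, KMT2C and SETD1A differed by -0.17, 0.00, -0.01 and -0.02. Their 95% intervals all spanned 0, the widest being -0.26 to 0.22 for SETD1A.

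KMT2C, the paralog of KMT2D, showed probe sets that disagreed. Its brightest (222415_at) read 8.92 and 8.94 against 8.95 and 8.89, which overlapped. A dimmer one (232940_s_at) rose from 7.26 and 7.28 to 7.65 and 7.71 (0.41 ± 0.075, limma adjusted p = 0.0152). Another (222414_at) went the opposite way, from 7.19 and 7.17 to 7.02 and 6.64 (-0.35 ± 0.13), and was not called (limma adjusted p = 0.131). KMT2C is also listed with other genes on a probe set of several symbols, which was left out.

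Of 14 other subunits of the COMPASS-type complexes that hold these enzymes, 1 rose and 2 fell. These were 21.4% of the list, beside 15.1% of all genes called. With probe sets under log2 6 left out, 1 of the 14 was called higher and 2 lower, beside 32.4% of all genes called. ASH2L, a core subunit, fell by 0.26 (SE 0.061, limma adjusted p = 0.0368) and BOD1 by 0.34 (SE 0.043). KMT2E, a relative of the KMT2 enzymes, rose by 0.31 (SE 0.066). The median difference of the list was 0.01. Its balance turned to 2 higher and 1 lower after cyclic loess, a second quantile normalization or centring. ASH2L and KMT2E were read by _s_at probe sets. Without _x_at and _s_at probe sets limma called 0 higher and 1 lower of 11 genes (2 and 2 at an unadjusted p under 0.05). With the mean of each gene's probe sets limma called 0 higher and 2 lower (3 and 4 unadjusted).

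No other methyltransferase among the members was called, and in limma 1 was higher and 1 lower at an unadjusted p under 0.05. These were SETD2, which methylates H3 at K36 in transcribed genes (0.20 ± 0.069), and SUV39H1, which methylates K9 in heterochromatin (-0.14 ± 0.060). SETD2 was called after cyclic loess (0.26, adjusted p = 0.0331). Its probe sets disagreed: the brightest was 212493_s_at, while the dimmer 215038_s_at and 220946_s_at differed by -0.06 and -0.28, neither called. SUV39H1 read 9.22 and 9.15 against 9.06 and 9.02, without overlap. The K9 methyltransferases SETDB1, EHMT1 and EHMT2 differed by -0.16, -0.15 and -0.05, and the arginine methyltransferase PRMT5 by -0.12. By sign of the brightest probe set, 5 of these 6 genes were lower, beside 8419 of all 19775 genes. Over all their probe sets, 9 of 15 were lower by sign, beside 24301 of all 54613 probe sets. PRMT5 probe sets 1564520_s_at and 1564521_x_at, nearly as bright, differed by 0.07 and 0.05.

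Of 19 methyltransferases outside the member list, 1 rose and 6 fell, with a median of -0.03, or 36.8% called beside 15.1% of all genes. With probe sets under log2 6 left out, 2 of these 19 were called higher and 6 lower, beside 32.4% of all genes called. SMYD3, a lysine methyltransferase that is often overexpressed in carcinoma, fell by 0.87 (SE 0.073, limma adjusted p = 0.00101). PRMT1, the main arginine methyltransferase, fell by 0.42 (SE 0.051), as did SUV39H2, the paralog of SUV39H1 (SE 0.095). KMT5A, which methylates histone H4 at mitosis, fell by 0.38 (SE 0.095, limma adjusted p = 0.0455). SETD7, a lysine methyltransferase and the gene that rose, differed by 0.26 ± 0.065 and is named outside the rule, after its value was seen. These falls depended on the probe sets used. With the mean of each gene's probe sets limma called 0 higher and 3 lower (1 and 6 at an unadjusted p under 0.05), and without _x_at and _s_at probe sets 0 higher and 1 lower of 17 genes (1 and 3 unadjusted).

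Of the 11 demethylases, 2 rose and 1 fell, or 27.3% called beside 15.1% of all genes. On the brightest probe set 10 of the 11 had a positive difference, beside 11354 of all 19775 genes. The median of the 11 was 0.13, beside 0.04 for all genes, or -0.01 for all genes with probe sets under log2 6 left out. KDM5A, which removes H3K4 methylation and binds the retinoblastoma protein, read 8.65 and 8.56 with GFP and 9.06 and 9.09 with ZNF750. The groups stood well apart, and the difference was 0.47 ± 0.063 (1.38-fold, limma adjusted p = 0.00497). That rise rested on 1 of 5 probe sets. KDM5A probe set 230226_s_at read 5.92 and 5.83 with GFP and 5.52 and 5.43 with ZNF750, a difference of -0.40 ± 0.11 that narrowly missed the threshold (limma adjusted p = 0.0531). Without _s_at and _x_at probe sets, whose probes can bind more than 1 transcript, KDM5A gave -0.03 (adjusted p = 0.880).

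KDM4B, which removes H3K9 methylation, rose more evenly. It read 9.52 and 9.52 with GFP and 9.88 and 9.80 with ZNF750, a difference of 0.32 ± 0.055 (1.25-fold, limma adjusted p = 0.0121). All 8 of its probe sets were higher by sign, though 7 were not called, and the mean of the 8 gave 0.16 and no call (limma adjusted p = 0.157). KDM4A, its paralog, had a brightest probe set at 0.09 and another at -0.26 ± 0.083, neither called.

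The pair of H3K27 demethylases went in opposite directions by sign. KDM6A, an X-linked gene, read 7.82 and 7.57 in the GFP arrays and 7.36 and 7.14 in the ZNF750-labelled arrays, a fall of 0.45 (SE 0.11, limma adjusted p = 0.0452). The groups did not overlap, but the arrays within each lay further apart than in the other 8 called genes. The next probe set of KDM6A gave -0.24, a dim one gave 0.27, and the mean over its 4 probe sets gave -0.13 (limma adjusted p = 0.422). KDM6B, which is induced as keratinocytes differentiate, read 7.65 and 7.62 with GFP and 7.87 and 7.95 with ZNF750. The groups did not overlap, and the difference of 0.27 ± 0.073 was just short of a call (limma adjusted p = 0.0542). It was called after cyclic loess (0.32, adjusted p = 0.0288) and when only the brightest probe set of each gene was fitted (adjusted p = 0.0365).

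The remaining demethylases differed by 0.27 or less. KDM7A, a dim gene here, was highest at 0.27 ± 0.11, followed by KDM2B and KDM3A, both at 0.13, and KDM2A and KDM5B, both at 0.11. KDM5B, a marker of slow-cycling tumour cells, read 7.900 and 7.958 against 8.083 and 7.995, barely apart (limma adjusted p = 0.394). KDM5C differed by 0.08 (95% interval -0.15 to 0.31). Of 12 demethylases outside the list, 2 rose and 2 fell, or 33.3% called beside 15.1% of all genes. With probe sets under log2 6 left out, 2 of 10 were called higher and 2 lower, beside 32.4% of all genes called. HR, the hairless corepressor of skin, differed by 0.48 (SE 0.082) and PHF2 by 0.26 (SE 0.062). KDM1B, the paralog of KDM1A, differed by -0.57 (SE 0.098) and KDM4C by -0.43 (SE 0.092). With the mean of each gene's probe sets limma called 1 of these 12 higher and 0 lower (1 and 1 at an unadjusted p under 0.05).

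Deacetylases and their scaffold held 4 of the 9 calls among 7 measured genes, or 57.1% beside 15.1% of all genes. Of these 7, 0 had a mean under log2 6, and with probe sets under that level left out 32.4% of all genes were called. The calls of HDAC5 and SIN3A were lost under alternatives given with each gene. HDAC9, a class IIa deacetylase that binds MEF2 factors and has little enzymatic activity of its own, read 7.03 and 7.05 with GFP and 8.18 and 8.10 with ZNF750. The distance between the groups far exceeded the spread within either. Its difference was 1.10 ± 0.076 (limma adjusted p = 0.000511). A dimmer probe set (230968_at) rose from 5.05 and 4.92 to 5.47 and 5.49 (0.50 ± 0.11, limma adjusted p = 0.0308), and the other 3 were higher by between 0.13 and 0.30 without a call.

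The class IIa paralogs did not move together. HDAC5 rose from 7.58 and 7.42 to 7.80 and 7.85 (0.32 ± 0.083, 1.25-fold), close to the threshold (limma adjusted p = 0.0486). It was not called with a robust variance prior (adjusted p = 0.05001) or with _s_at and _x_at probe sets left out (adjusted p = 0.0587). HDAC4 read 6.54 and 6.39 with GFP and 6.15 and 6.10 with ZNF750. Its groups did not overlap, and its difference of -0.34 ± 0.10 was not called (limma adjusted p = 0.0755) until probe sets under log2 6 were left out (adjusted p = 0.0403). The difference between HDAC9 and HDAC4 was not tested.

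Among the class I enzymes, which deacetylate histones in the nucleus, HDAC1 fell. Its only probe set read 11.19 and 11.23 with GFP and 10.89 and 10.96 with ZNF750, a difference of -0.28 ± 0.047 (limma adjusted p = 0.0102). HDAC2, its close paralog, read 10.39 and 10.22 against 10.39 and 10.14. These groups overlapped, and the difference of -0.04 had a 95% interval of -0.25 to 0.17. Whether the pair differed from each other was not tested. HDAC3, the NCOR enzyme, differed by -0.17 ± 0.057 without a call (limma adjusted p = 0.106), read by an _s_at probe set.

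SIN3A, the scaffold that holds HDAC1 and HDAC2, rose on 1 of 4 probe sets. The brightest (238005_s_at) read 8.37 and 8.21 with GFP and 8.74 and 8.56 with ZNF750, a difference of 0.36 ± 0.090 (1.29-fold, limma adjusted p = 0.0421). SIN3A probe set 225135_at, nearly as bright, read 7.90 and 7.79 against 7.94 and 7.81, which overlapped. Without _s_at and _x_at probe sets SIN3A therefore gave 0.03, and with the mean of its probe sets 0.11 (limma adjusted p = 0.412), neither of them called.

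Of 31 measured deacetylase and corepressor genes outside the members, 4 rose and 2 fell, with a median of 0.00. These calls made up 19.4% of the list, beside 15.1% of all genes. With probe sets under log2 6 left out, 4 of the 31 were called higher and 2 lower, beside 32.4% of all genes called. TBL1X, an exchange factor of the NCOR complex, rose by 0.68 (SE 0.078, limma adjusted p = 0.00294) and SIRT1, an NAD-dependent deacetylase, by 0.50 (SE 0.085). HDAC8, a class I enzyme, fell by 0.53 (SE 0.085), and ING2, the subunit that ties SIN3 to methylated H3K4, by 0.32 (SE 0.061). With the mean of each gene's probe sets, 1 was called higher and 1 lower. Without _x_at and _s_at probe sets limma called 0 higher and 1 lower of 21 genes (1 and 4 at an unadjusted p under 0.05).

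**Figure D3:**
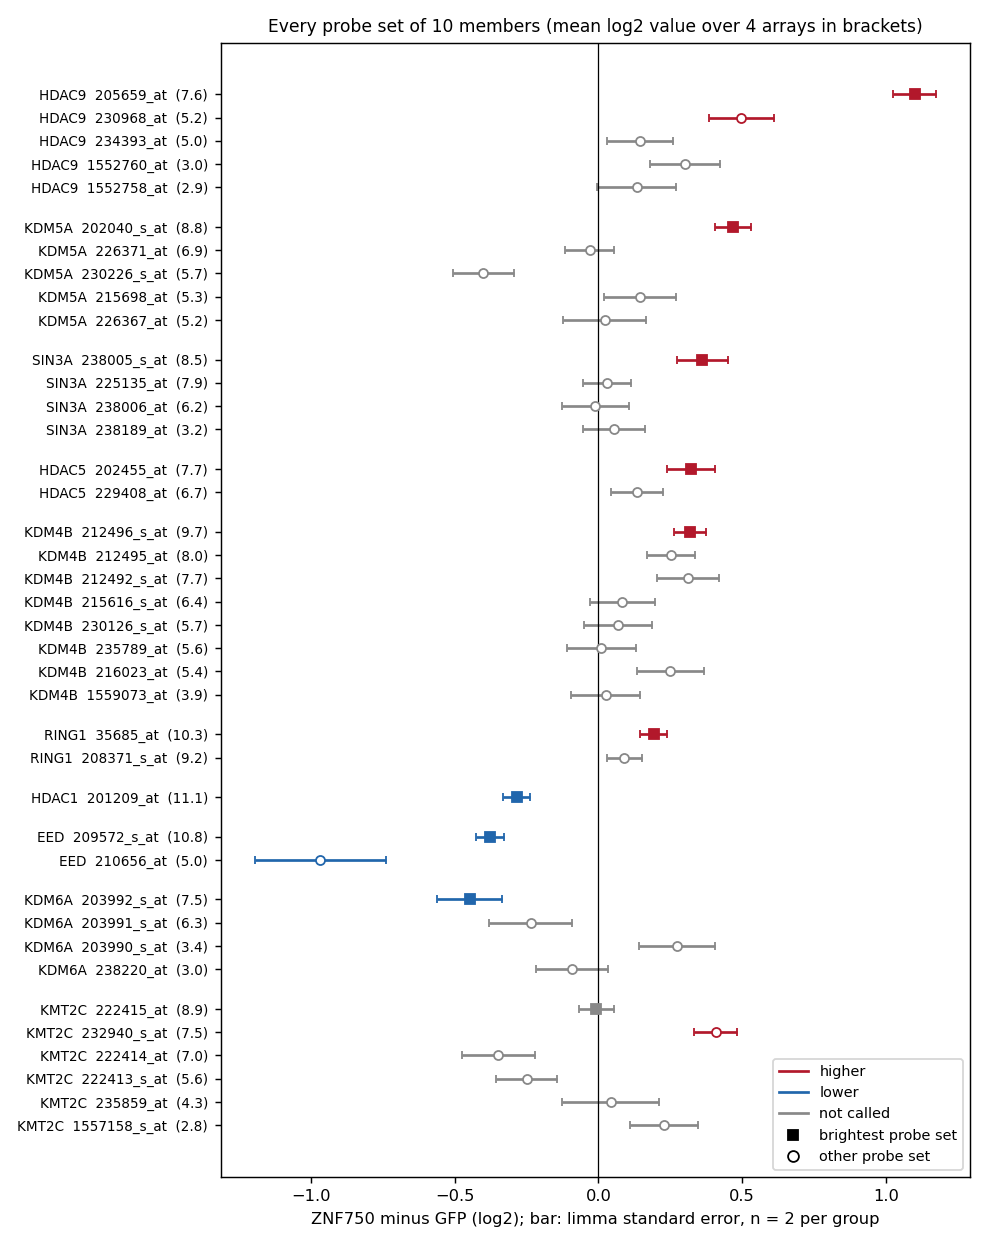
Difference (horizontal axis, log2) for every probe set of the 9 called members and KMT2C, with limma's standard error as the bar; the number in brackets is the mean log2 value over 4 arrays, and squares are brightest probe sets. Both EED probe sets and all 5 of HDAC9 lie on one side of 0, while KDM5A, SIN3A, KDM6A and KMT2C have probe sets on both sides.

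The acetyltransferases held no call by brightest probe set in limma, and 1 passed at an unadjusted p under 0.05 (KAT2B). EP300, the p300 coactivator, read 8.41 and 8.46 with GFP and 8.53 and 8.42 with ZNF750, and CREBBP, its paralog, 9.21 and 9.23 against 9.23 and 9.27. Their differences of 0.05 and 0.03 had 95% intervals of -0.12 to 0.21 and -0.10 to 0.16. EP300 had a dimmer probe set (213579_s_at) that read 7.19 and 7.25 against 6.64 and 6.96, and its difference of -0.42 ± 0.12 was not called (limma adjusted p = 0.0605). The dimmer CREBBP probe set 228177_at likewise differed by -0.28 ± 0.091 (limma adjusted p = 0.0931).

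KAT2B, a dim gene here, differed by -0.35 ± 0.13, and KAT2A, its paralog in the SAGA complex, by 0.07 ± 0.062. KAT6A, which acetylates H3 in a complex with BRPF proteins, differed by 0.08 ± 0.071. Of 19 other acetyltransferases and partners, 1 rose and 3 fell, with a median of 0.05. These calls made up 21.1% of the list, beside 15.1% of all genes. With probe sets under log2 6 left out, 2 of the 19 were called higher and 3 lower, beside 32.4% of all genes called. HAT1, which acetylates newly made histone H4, fell by 0.48 (SE 0.088), KAT5 by 0.36 (SE 0.069) and ING5 by 0.36 (SE 0.071), while BRD1 rose by 0.36 (SE 0.057). After cyclic loess 3 of this list were called higher and 3 lower. Without _x_at and _s_at probe sets limma called 0 higher and 4 lower of 16 (2 and 4 at an unadjusted p under 0.05).

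Over all 6 lists of chromatin genes outside the members, 10 of 122 measured genes rose and 18 fell, together 23.0% beside 15.1% of all genes. That balance turned with the scaling, to 17 higher and 15 lower after cyclic loess and 20 higher and 15 lower after a second quantile normalization or centring. Without _x_at and _s_at probe sets, 3 were higher and 9 lower of 97. With any 1 array left out, most calls were lost among these genes, as among all genes. Only 2 of the 42 members and 2 of the 122 other chromatin genes had a mean under log2 6, against 8490 of the 19775 genes. Of the 31 corepressor genes, 0 did. With probe sets under log2 6 left out, 32.4% of all genes and 30% of the members were called. The shares set beside 15.1% thus compare mostly brighter genes with all genes, the dim ones included.

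Several members follow the cell cycle in other systems, EZH2 and SUV39H1 among them, so 16 proliferation genes were examined beside them. In these, 5 fell, 1 rose and 10 were not called, with a median of -0.01. The called share was 37.5%, beside 15.1% of all genes, and after cyclic loess 4 were called higher. CCNB1 (-1.21), PLK1 (-0.67), BUB1 (-0.46), AURKA (-0.32) and CCNA2 (-0.29) fell, and E2F1 (0.32) rose. CDK1 (0.09), TOP2A (-0.08) and MKI67 (-0.20) were not called. PCNA (0.15), MCM5 (0.18), MCM2 (0.13) and RRM2 (0.07) were higher without overlap and not called. MCM3 (0.11), TYMS (0.04) and MCM6 (-0.06) overlapped between the groups and were not called. The 16 were named after their values were seen. Their part in the member differences was not tested.

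The arrays themselves differed in ways that run with the groups. Pearson's r across probe sets was 0.997 within each group and between 0.992 and 0.994 across groups. The ACTB control probe sets, which track RNA integrity, had a 3′ minus 5′ difference of 2.92 ± 0.15 in the GFP arrays (SD, n = 2). In the ZNF750-labelled arrays it was 3.56 ± 0.29 (SD, n = 2). The GAPDH 3′ probe set stood above its 5′ one by 0.62 in the control arrays (SD 0.0097, n = 2) and by 0.82 in the others (SD 0.037, n = 2). The bioB hybridization control averaged 8.91 in the controls and 9.32 in the others. The part of these in the results was not tested. The ZNF750 probe set lay near the bottom of the scale on all arrays (2.13 and 2.37 with GFP, 2.23 and 2.29 with ZNF750). Probe positions were not used, so it does not check the labels. The 7 measured squamous and cervical carcinoma markers had mean levels between 10.97 and 12.97, whereas the fibroblast, endothelial and leukocyte markers had median levels between 4.27 and 4.88. COL1A1 (8.36) was the highest of these, LUM stood at 2.70 and PTPRC at 3.95.

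With any 1 array left out, 1 group held only 1 array. Most calls were then lost, among the members and among all genes alike. Every one of the 9 kept its direction each time. The difference of HDAC9 ranged from 1.06 to 1.14, and that of EED from -0.41 to -0.34. KDM6A varied most, from -0.57 to -0.32. With all 4 arrays but no intensity trend in the variance prior, limma called only HDAC9 of the 9, and 2.72% of all genes. The limma adjusted p of the other 8 lay between 0.0560 (KDM5A) and 0.210 (RING1). The scaling also shifted the balance. After cyclic loess 11 members were called higher and 3 lower, or 33.3% beside 16.5% of all genes. The share of lower calls among all genes went from 57.8% to 44.8%.

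**Figure D4:**
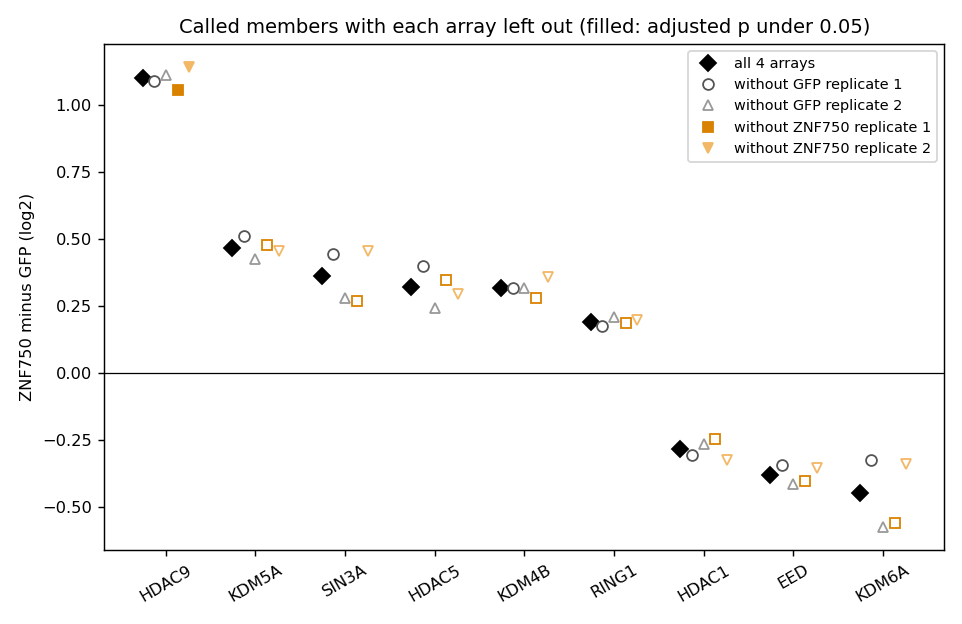
Difference (vertical axis, log2) of the 9 called members with all 4 arrays and with each array left out in turn; filled symbols are called at an adjusted p under 0.05. No symbol crosses 0, and HDAC9 alone keeps a filled symbol, in 2 of its 4 reduced fits.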

How the data were processed

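The members and lists were chosen with earlier results of these data known. The authors deposited log2 values for 54675 probe sets on 4 arrays, made with RMA per the submitters' processing notes, in a version not given in the sources used here. The method corrects background, quantile normalizes and summarises probes. The 62 control probe sets were left out. Symbols came from the platform annotation: 41091 probe sets carried 1 symbol, 1801 several and 11721 none. Limma 3.58.1 in R 4.3.3 was fitted to all 54613 other probe sets (eBayes with an intensity trend, 2 residual degrees of freedom, two-sided, Benjamini-Hochberg). A gene is represented by its brightest probe set with 1 symbol. An exact permutation test of 2 against 2 arrays cannot go below 0.333 and was not used.

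Every member may be named; values on each array are given for called members and for 10 of the members fixed by name (the other, BMI1, is not reported here), and up to 4 called genes of each list of other chromatin genes are named. SETD7 and the 16 proliferation genes were named after their values were seen. Alternatives covered the variance prior, probe sets, dim genes, scaling, the replicate number as a block, thresholds and leaving out each array. The replicate numbers carry no stated pairing. The number of arrays limits precision.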

Additional observations from a re-analysis of the deposited data

How the results depend on the processing

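Limits: RMA values carry no detection calls, probe positions or scan dates, and 2 arrays per group leave the variance to be borrowed across probe sets. The direction of all 9 called members held under every alternative run except 1: without _x_at and _s_at probe sets KDM5A turned to -0.031, because another probe set stood for it. HDAC9 was called under every alternative that kept all 4 arrays. Counts are given as higher and lower, and those that moved least are left out.

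Without the intensity trend, calls were 1 and 0 member genes (8 and 5 at an unadjusted p under 0.05), 1 and 0 member probe sets, 520 and 754 of all probe sets, 262 and 275 of all genes, 1 and 1 other chromatin genes, and 0 and 2 proliferation genes. Without _x_at and _s_at probe sets they were 2 higher member genes, with EED and HDAC1 still called lower, and 3 and 2 member probe sets. All probe sets then gave 1230 and 1845, all genes 775 and 1125, and other chromatin genes 3 and 9. The mean of probe sets gave 2 higher member genes, with EED and HDAC1 still called lower, and 5 higher other chromatin genes. At an adjusted p under 0.01 there were 2 and 1 member genes, 2 and 1 member probe sets, 704 and 1474 probe sets, 434 and 706 genes, 2 and 6 other chromatin genes, and 0 higher proliferation genes. At 0.1 there were 3912 higher probe sets, 1907 higher genes, 9 lower member probe sets and 3 higher proliferation genes. Proliferation genes called higher also numbered 3 with only brightest probe sets fitted and 3 without dim probe sets.

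Scaling raised the higher counts: cyclic loess gave 14 member probe sets, 11 member genes, 17 other chromatin genes and 4 proliferation genes. A second quantile normalization gave 14, 10, 20 and 4 in that order. Centring on brighter probe sets gave 17, 11, 20 and 3, with 4476 probe sets and 2277 genes, and lower calls were then 38.7% of gene calls (43.9% after the quantile step). It moved the median difference of all genes from 0.036 to 0.099.

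With the replicate number as a block, 5 member probe sets and 2 proliferation genes were called higher, RING1 (adjusted p = 0.0501) and HDAC5 (0.0719) lost their calls, and the other 7 called members kept theirs. Deviations of arrays with the same number correlated at 0.134 across probe sets.

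With 1 array left out, called member genes ranged from 0 to 1 higher with 0 lower (6 to 12 and 2 to 6 at an unadjusted limma p under 0.05), member probe sets from 0 to 1 and 0 to 1, all probe sets from 8 to 267 and 1 to 661, and all genes from 3 to 146 and 1 to 329. Other chromatin genes gave 0 higher and 0 to 2 lower, and proliferation genes 0 higher and 0 to 2 lower. The lone array is then assumed to vary like the others.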
